A study of Mus musculus with 2 samples.

Results

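The transcripts described here are those of YAP and TAZ, the 4 TEAD factors that carry them to DNA, and 4 genes widely used as their targets. They are Yap1, Wwtr1 (which encodes TAZ), Tead1, Tead2, Tead3, Tead4, Ccn1, Ccn2, Ankrd1 and Lats2. These 10 genes, of 18193 represented on the array, were picked by symbol as a known pathway, with earlier results of these data in view. They are read by 24 probe sets that the platform annotation assigns to 1 gene each. Primary myoblasts, the precursors of muscle fibres, came from newborn Sv129 mice and were grown on laminin and collagen. Control cells spent 4 hours in DMEM containing 2% horse serum, and the treated cells spent the same time in this medium with Wnt3a at 100 ng/ml. Wnt3a is a secreted ligand that stabilises β-catenin. There was 1 array per condition, so no value has a replicate, no difference was tested, and the number of arrays limits the precision. The labels do not say how many animals or dishes gave each RNA.

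YAP and TAZ are coactivators without a DNA-binding domain of their own, and they reach their target genes mainly by binding TEAD factors. The Hippo kinases, which include LATS2, phosphorylate them and keep them out of the nucleus, and Lats2 is itself a target gene, so that it forms a feedback loop. In muscle, TEAD factors bind the MCAT elements of many muscle genes, YAP is associated with myoblast proliferation, and the β-catenin destruction complex has been described as a partner of YAP and TAZ. Most of this control acts on the proteins and their location, which an array of transcripts does not read.

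Promoter sequence was available for 7 of the 10 genes in RefSeq's table (build GRCm38.p6). The 250 bases upstream of the annotated start are printed for Ccn1, the member with the largest difference, for Ankrd1, a target whose difference had the opposite sign, and for Wwtr1, the only coactivator gene higher on all its probe sets. Capitals mark GGAATG, the core of the MCAT element bound by TEAD factors, its reverse complement CATTCC, and CTTTGAT, a core of the TCF/LEF element. All 3 genes lie on the minus strand, and the sequences read 5′ to 3′ in the direction of the gene. The windows are chr3:145649986-145650235 for Ccn1, chr19:36119845-36120094 for Ankrd1 and chr3:57575911-57576160 for Wwtr1, at the more upstream of its annotated starts.
Ccn1: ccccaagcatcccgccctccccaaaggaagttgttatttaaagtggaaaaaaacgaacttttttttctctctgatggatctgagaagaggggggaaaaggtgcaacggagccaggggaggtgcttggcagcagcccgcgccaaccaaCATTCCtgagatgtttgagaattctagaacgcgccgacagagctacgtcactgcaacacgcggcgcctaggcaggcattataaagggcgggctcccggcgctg
Ankrd1: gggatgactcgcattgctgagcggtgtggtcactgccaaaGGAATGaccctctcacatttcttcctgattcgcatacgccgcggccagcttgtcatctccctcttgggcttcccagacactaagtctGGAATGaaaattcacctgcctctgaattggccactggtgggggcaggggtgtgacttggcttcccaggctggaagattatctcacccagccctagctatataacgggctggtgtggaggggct
Wwtr1: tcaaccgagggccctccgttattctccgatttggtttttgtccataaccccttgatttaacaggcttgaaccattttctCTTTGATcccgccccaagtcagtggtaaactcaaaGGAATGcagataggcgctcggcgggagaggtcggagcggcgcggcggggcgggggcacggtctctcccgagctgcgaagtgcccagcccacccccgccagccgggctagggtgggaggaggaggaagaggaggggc

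In these windows Ccn1 held the reverse complement CATTCC, whose first base lies 103 bases upstream of the start. Ankrd1 held GGAATG at 210 and at 123 bases upstream. Wwtr1 held GGAATG at 136 and CTTTGAT at 171 bases upstream. Searched on both strands in upstream windows of the same length, GGAATG was found for 5 of the 7 members with an entry (Ankrd1, Ccn1, Tead3, Wwtr1 and Yap1) and for 14.4% of 27025 genes in the table. CTTTGAT was found for 1 of the 7 (Wwtr1) and for 3.72% of the genes. The 2 motifs do not overlap each other. Genes with several annotated starts have several windows, which can overlap, and a gene was counted when any of its windows held the motif. By window, GGAATG was in 7 of 11 member windows and in 12.6% of all 32851. CTTTGAT was in 2 of the 11 and in 3.21% of all windows. A match describes these letters only and is no evidence of binding. Among the genes with GGAATG, the differences between the arrays were above 0 for Ccn1, Wwtr1 and Yap1 and below 0 for Ankrd1 and Tead3 (brightest probe sets).

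Ccn1 had the largest difference between the arrays, and the differences of the other measured members lay within the central 95% of all measured genes. On the log2(intensity + 1) scale, a gene was called measured where its brightest probe set reached a floor of 6 (an intensity of 63) on at least 1 array, a fixed brightness that is not a detection limit. This held for 9 of the 10 members, all but Ccn2, and for 11397 genes in all. None of the 9 differed by 1.5-fold or more in either direction, against 1.23% of all measured genes, a share so low that a count of 0 among 9 genes is near it. At a smaller threshold, a log2 difference of 0.32, 1 of the 9 differed, Ccn1, against 5.32% of all measured genes in either direction. The members' other 8 differences were all smaller than that. Above 0 were 5 of the 9 members and 47.3% of all measured genes, and the members' median difference (Wnt3a minus control) was 0.07 against -0.0057 over all measured genes. Over the 22 member probe sets at the floor, 13 were higher with Wnt3a, 8 were lower and 1 had the same value on both arrays, and 14 differed by less than 0.1.

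**Figure D1:**
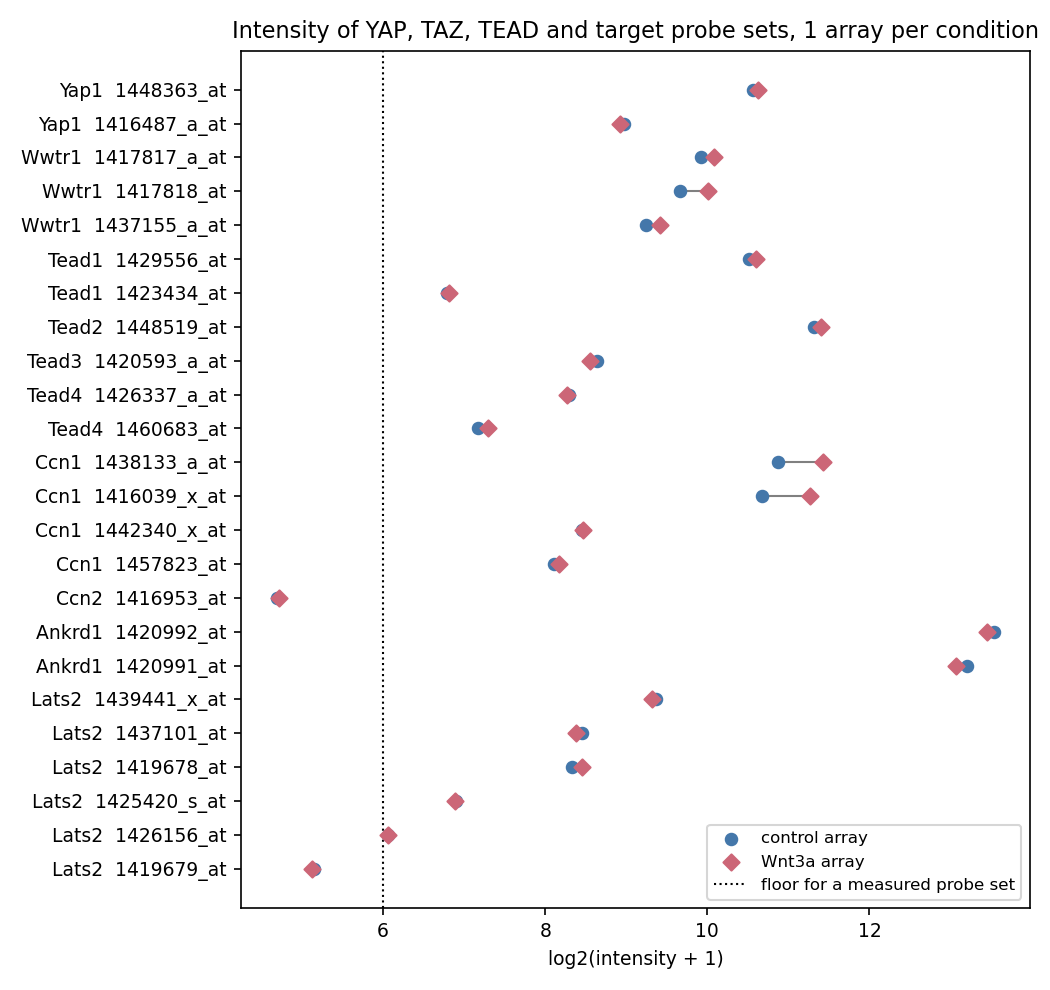
Intensity of each of the 24 member probe sets as log2(intensity + 1), with a circle for the control array and a diamond for the Wnt3a array. The pairs nearly coincide except for 2 of the 4 Ccn1 probe sets and, by less, 1 of the 3 Wwtr1 probe sets, and the dotted line marks the floor of 6. Levels of different probe sets cannot be compared with each other.

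Higher and lower are meant here against the average gene on the arrays. The central 95% of measured genes had differences between -0.33 and 0.33, and where a gene had at least 2 probe sets at the floor (5084 genes), their differences had a pooled SD of 0.12. That SD reads noise between probes and not between cultures or hybridisations. All 42 spike-in control probe sets were lower on the Wnt3a array, with a median difference of -0.19. Scaling on them would add 0.19 to every difference. All 9 measured members would then be higher with Wnt3a, and negative differences smaller than this in the lists of other genes would also turn positive. Axin2, a textbook target of Wnt signalling, had intensities of 98.7 in the control and 1220 with Wnt3a (3.61), and its other probe set was higher too. Of 8 genes looked at as a check of Wnt exposure, 4 passed 1.5-fold on the high side, as did 101 of 11397 measured genes. They were Axin2, Lgr5, Bambi (0.66) and Zfp703 (0.60, but 0.11 on its other probe set). Among these 4, Lgr5 was under the floor in the control (46.9 and 117). Of the rest, 1 was higher by less, and Lef1, Nkd1 and Nkd2 were lower (-0.21 to -0.13). Nkd1 (71.6 and 62.1) was just under the floor with Wnt3a, and Nkd2 (74.7 and 64.6) lay close to the floor. All 6 myoblast markers (Myod1, Myf5, Pax7, Des, Cdh15 and Itga7) were measured on these arrays, with summed intensities of 25300 and 25778. Myf5 was higher (3989 and 5589, difference 0.49), as was Des (0.32), while Itga7 was lower (-0.26) and the other 3 differed by less.

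The coactivator genes differed little, Wwtr1 more than Yap1. Yap1 had an intensity of 1509 in the control and 1582 with Wnt3a on its brightest probe set (1448363_at), a log2 difference of 0.07. Its other probe set (1416487_a_at), which carries the same accession in the platform annotation, went the other way, from 501 to 485 (-0.05). The Yap1 probe sets thus did not share a direction, and both differences were smaller than the SD between probe sets. Wwtr1 was at 971 in the control and 1085 with Wnt3a on its brightest probe set (1417817_a_at), a log2 difference of 0.16 or 1.12-fold. A second Wwtr1 probe set with the same accession (1417818_at) read 810 and 1029, a difference of 0.35 or 1.27-fold, and the third (1437155_a_at) read 607 and 684, a difference of 0.17. All 3 Wwtr1 probe sets were higher with Wnt3a. For the brightest, 23.9% of measured genes had a difference of at least that size in either direction.

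The 4 TEAD genes, which encode closely related DNA-binding partners of YAP and TAZ, were all measured, and none differed by as much as 0.1 on its brightest probe set. Tead1, a broadly expressed family member, read 1457 in the control and 1548 with Wnt3a (0.09), and its dimmer probe set read 109 and 112 (0.03). Tead2, read by 1 probe set, went from 2554 to 2708 (0.08). Both were slightly higher with Wnt3a, and about as many measured genes differed by more than Tead1 or Tead2 as by less (48.8% and 50.3% had at least that size). Tead3, also read by 1 probe set, went from 397 to 375 (-0.08). Tead4, a family member expressed in differentiating myoblasts, read 313 and 307 (-0.03) on the brighter probe set and 143 and 156 (0.13) on the other. Its direction therefore depended on the probe set. On the brightest probe sets the TEAD genes were split, 2 higher and 2 lower (all 4 higher under spike-in scaling), and each of these differences was smaller than the SD between probe sets.

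**Figure D2:**
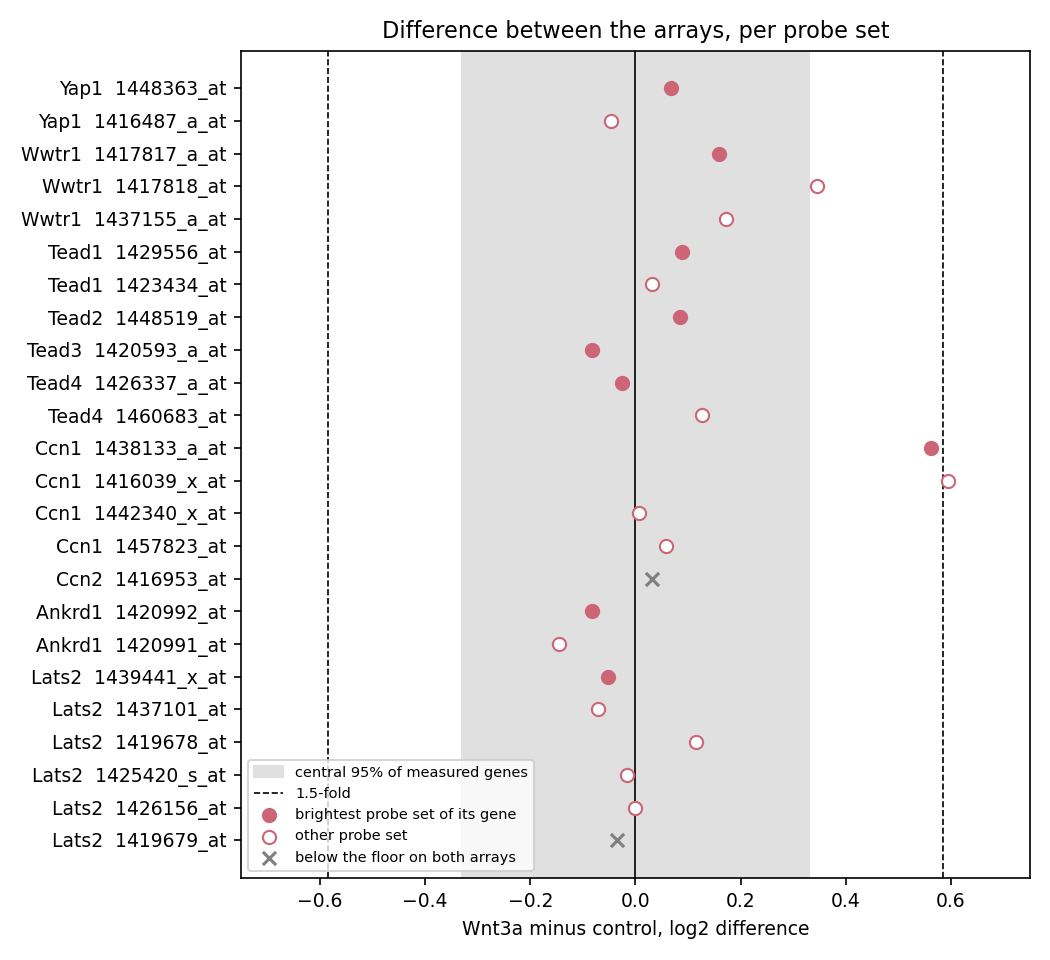
Wnt3a minus control as a log2 difference for each member probe set, with a filled circle for the brightest probe set of a gene, an open circle for the others and a cross for the 2 below the floor on both arrays. The grey band is the central 95% of measured genes (-0.33 to 0.33) and the dashed lines mark 1.5-fold. Only 3 probe sets lie outside the band, 2 of Ccn1 (0.56 and 0.59) and 1 of Wwtr1 (0.35).

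Among the targets, Ccn1 was higher with Wnt3a on part of its probe sets. Ccn1 encodes CYR61, a secreted matricellular protein whose gene responds quickly to YAP, serum and stretch. Its brightest probe set (1438133_a_at) read 1868 in the control and 2759 with Wnt3a, a log2 difference of 0.56 or 1.48-fold. A second one (1416039_x_at) read 1627 and 2458, a difference of 0.59 or 1.51-fold. The other pair gave almost no difference, 350 and 352 on 1442340_x_at (0.01) and 275 and 286 on 1457823_at (0.06). These dimmer probe sets carry 1 shared accession in the platform annotation, while each of the 2 brighter ones carries its own. The SD over the 4 Ccn1 probe sets was 0.32 around a mean of 0.31, so their spread was as large as their mean. Of 11397 measured genes, 107 had a larger positive difference than the brightest Ccn1 probe set, and 1.34% had a difference of at least its size in either direction. Leaving out probe sets whose suffix marks a possible match to several transcripts leaves 1457823_at alone for Ccn1, and its difference of 0.06 then stands for the gene.

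Ccn2, which encodes CTGF, the other CCN protein most often used to read YAP and TAZ activity, was below the floor on both arrays. Its only probe set (1416953_at) read 24.8 in the control and 25.4 with Wnt3a. Ccn2 therefore gives no usable fold here. No detection call was used, so these intensities do not show whether the transcript was present.

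Ankrd1, which encodes a cardiac and skeletal muscle ankyrin repeat protein and is a common reporter of YAP and TAZ activity, was slightly lower with Wnt3a, and slightly higher under spike-in scaling (0.11). It read 11876 in the control and 11219 with Wnt3a on the brighter probe set (-0.08), and 9470 and 8563 on the other (-0.15). The probe sets shared a direction, but 51.4% of measured genes had a difference at least as large as that of the brighter one. Ankrd1 and the brighter Ccn1 probe sets thus had differences of opposite sign, and with 1 array per condition the contrast between the targets was not tested.

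Lats2, the Hippo kinase gene that is also a YAP and TAZ target, had 6 probe sets and no common direction among them. The brightest (1439441_x_at) read 662 in the control and 638 with Wnt3a (-0.05). Of the other 4 at the floor, 1437101_at read 350 and 333 (-0.07), 1425420_s_at read 118 and 117 (-0.02), and 1419678_at read 321 and 348 (0.12). A Lats2 probe set just above the floor (1426156_at) held the identical value of 65.6 on both arrays, as did 3.74% of all probe sets, and the sixth lay below the floor at 34.6 and 33.7. These 5 differences ranged from -0.07 to 0.12, each smaller in size than the SD between probe sets. A further probe set assigned both to Xpo4 and to Lats2, and so not counted, read 414 and 345 (-0.26).

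The other genes of the Hippo pathway had differences of both signs. Of 10 measured kinases, adaptors and upstream regulators, 5 were higher and 5 lower, none by a log2 difference of 0.32, against 5.32% of all measured genes, and the median was -0.0037. The largest differences in this list were those of Taok2, an upstream kinase (219 to 259, difference 0.24), Mob1b, a LATS coactivator (-0.12, and -0.32 on its other probe set), Map4k4, a kinase that can act on LATS (0.10), and Taok1 (-0.09, up to 0.28 on its other probe sets). Of 17 measured scaffold and polarity genes 8 were higher and 9 lower, again none by 0.32, and their median was -0.01. With lists this short, a count of 0 is near that share and says nothing particular about them. Amot, which encodes the angiomotin that binds YAP at junctions, read 1158 and 993 (-0.22, but 0.18 on another probe set). Dlg5 (0.20), the Fat cadherin ligand gene Dchs1 (-0.19) and the polarity gene Scrib (0.19) followed. Of the Vgll genes, whose products compete with YAP and TAZ for TEAD, 3 were measured. Vgll3 read 2135 and 2236 (0.07), Vgll2 read 312 and 325 (0.06), and Vgll4 had the same value on both arrays.

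**Figure D3:**
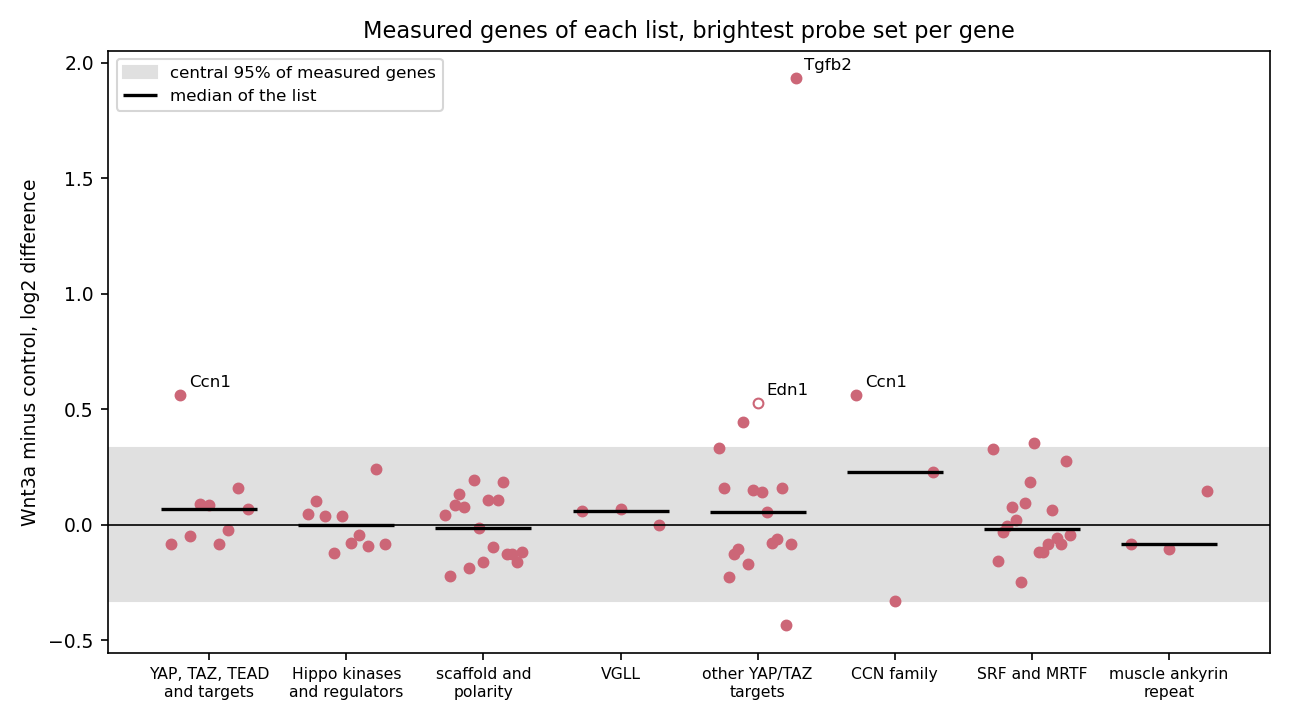
Wnt3a minus control as a log2 difference for every measured gene of each list, 1 point per gene (brightest probe set), with the list's median as a bar and the central 95% of measured genes in grey. Most points lie within the band, and Tgfb2 (1.93) and Ccn1 (0.56) lie highest among the filled points. The open point is Edn1, which was below the floor in the control, so that its height is the measured value and not a bound. Ccn1 and Ankrd1 stand in more than 1 list.

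Other genes reported as YAP and TAZ targets in various cells did not share a direction. Of 17 measured, 9 were higher and 8 lower, and the median difference was 0.05. Higher by a log2 difference of at least 0.32 were 4 of the 17, against 2.61% of all measured genes, and 1 was lower by that much, against 2.70%. Edn1 counted among the 17, and among the 4 higher, only through its Wnt3a array, so that count is set in part by the filter. Tgfb2, a TGF-β ligand gene that stands in this list by its reports as a YAP target, went from 106 to 409, a 3.82-fold difference shared by its 3 probe sets (1.92 to 2.09). Edn1, the endothelin gene, read 56.6 in the control, under the floor, and 82.0 with Wnt3a. The fold would be 1.30 with the floor in place of its control value. This is no lower bound, because the floor is not a detection limit. Cdc42ep3, an effector of the GTPase CDC42, read 1202 and 1634, a difference of 0.44. Nuak2, a kinase gene, was lower, at 151 and 111 (-0.44). The remaining measured targets lay between -0.23 (Asap1) and 0.33 (Arhgap29, the last of the 4 counted as higher), a pair named here after their values were seen.

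Within the CCN family, Ccn1, Ccn4 and Ccn5 were measured. Ccn4, often described as a Wnt-induced gene, was lower, at 1966 and 1562 (-0.33, and -0.15 on its other probe set). Ccn5 was at 80.2 and 94.1 (0.23), not far above the floor. The CCN genes above the floor thus went in both directions, and Ccn2, Ccn3 and Ccn6 were below it on both arrays. Among the muscle ankyrin repeat genes, Ankrd2 was lower (-0.11), as Ankrd1 was, while Ankrd23 was higher (0.15). All 3 of these differences were well under 0.32.

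Ccn1 and Ankrd1 are also read by serum response factor and its actin-regulated cofactors in many cells, so the genes of that programme are given beside them. Of 18 measured, 8 were higher and 10 lower, and the median was -0.02, where 47.3% of all measured genes were above 0. Higher by at least 0.32 were 2 of the 18, against 2.61% of all measured genes. These were Mrtfa, which encodes such a cofactor (582 to 743, difference 0.35), and Acta2, smooth muscle α-actin (6867 to 8628, difference 0.33). Vcl, the focal adhesion gene vinculin, was higher by less (0.27 and 0.35 on its 2 probe sets), and Fhl2 was lower (-0.25). The factor's own gene, Srf, named here after its values were seen, read 826 and 780 (-0.08, and 0.18 on its other probe set).

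Markers of other cell types differed in part between the arrays. Of the 6 smooth muscle and pericyte markers 3 were measured, Acta2, Tagln and Des, which myoblasts also express, and the list's summed intensity was 10670 in the control and 12999 with Wnt3a. The other 3 (Cnn1, Myh11 and Rgs5) were below the floor on both arrays. Of the 8 fibroblast markers 1 was measured, Col3a1, and the sum was 11248 and 9599. The lung epithelial list, with 3 of 5 measured, had sums of 591 and 283, mainly through Scgb1a1 (334 and 61.2, under the floor with Wnt3a). Its other measured genes were split, with Sftpc lower (78.3 and 36.8, also under the floor with Wnt3a) and Sftpb slightly higher (131 and 140). Leukocyte markers (3 of 5 measured) had sums of 359 and 340, endothelial markers (2 of 5) 207 and 176, and Schwann cell markers (2 of 3 with a probe set assigned) 266 and 275. The endothelial sums differed mainly through Tek (70.4 and 39.5, under the floor with Wnt3a), while Kdr had the same value on both arrays. No marker was at 0 on either array, but without a detection call these intensities do not show which of these cells were present. Their part in the difference of Ccn1 was not tested, and in a bulk culture a change in the share of cells and a change of RNA per cell cannot be told apart.

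**Figure D4:**
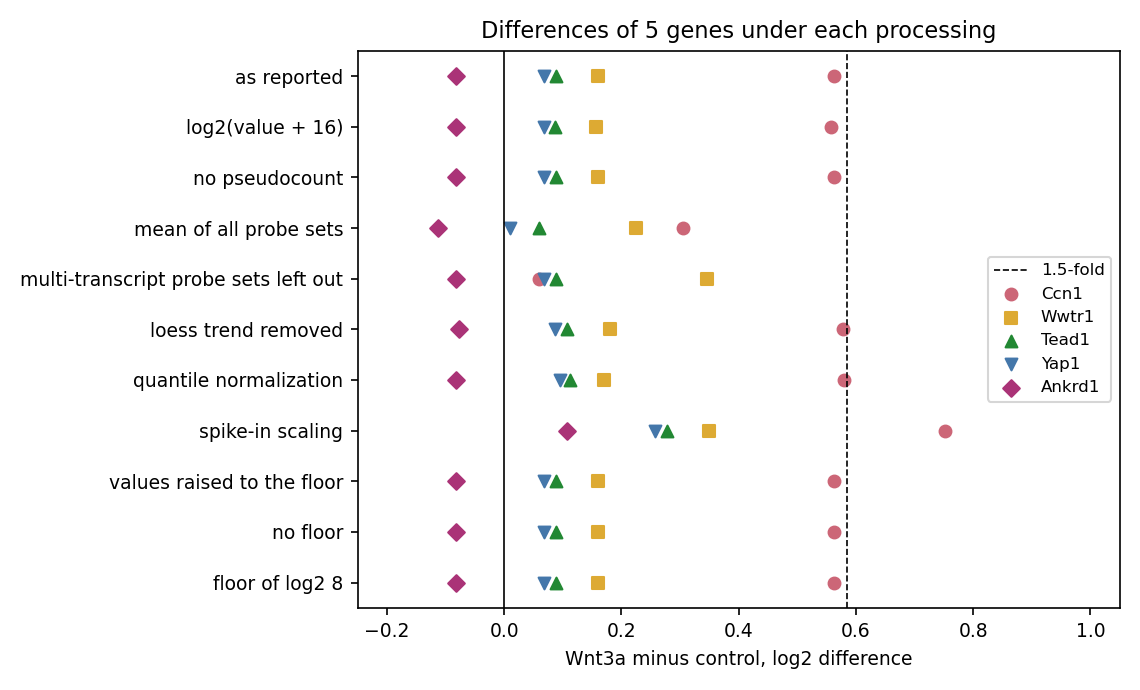
Wnt3a minus control as a log2 difference for Ccn1, Wwtr1, Tead1, Yap1 and Ankrd1 (colours) under the reported processing and 10 alternatives (rows), with a dashed line at 1.5-fold. Ccn1 ranges from 0.06, with multi-transcript probe sets left out, to 0.75 under spike-in scaling, and Ankrd1 is above 0 only under spike-in scaling (0.11).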

How the data were processed

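The authors deposited 1 intensity per probe set and array, on a linear scale. RMA, affy and limma are listed in the submitters' processing notes, while their versions and settings were not given in the sources used here. Per the labels, cRNA was made with a 3′ kit, so signals come mainly from 3′ ends. Median intensities were 57.9 (control) and 58.7 (Wnt3a). From these, log2(intensity + 1) and Wnt3a minus control were computed. The added 1 makes differences of dim probes a little smaller. Of 45101 probe sets, 64 controls were left out, 34945 had 1 gene symbol and 932 several. The RefSeq table of GRCm38.p6 held 34741 of the 34945 by Entrez identifier, all 10 members included, and changed no symbol. For each gene the probe set brightest on average was used.

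With 1 array per condition there is no test. The members and lists were chosen with earlier results of these data known. Named are all members, up to 4 genes with the largest differences from each related list, and Axin2. Asap1, Arhgap29, Srf and single check and marker genes fall outside this rule and were named after their values were seen. Alternatives were another pseudocount (16 or none), averaging all probe sets of a gene, leaving out suffixes _x_at, _s_at and _a_at, a loess trend (span 0.3), quantile normalization, spike-in scaling, values raised to the floor, no floor, a floor of 8, and calls at 2-fold and at 0.32 (log2). The procedure was run on simulated data with planted folds and independent noise per probe set. Those data hold no variation between cultures, so they do not test calls made from 1 array per condition. Python 3.11.15, numpy 2.4.6, pandas 2.3.3, statsmodels 0.14.6 and matplotlib 3.10.9 were used.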

Additional observations from a re-analysis of the deposited data

How the results depend on the processing

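No paired analysis was possible because each condition had 1 array. Without replicates, a value was taken as moved where it shifted by more than the SD between probe sets of a gene (0.12). No member passed 1.5-fold, except that 1 (Ccn1, 0.75) did under spike-in scaling, where 2.03% of all measured genes did. At a log2 threshold of 0.32 1 member passed, and at 2-fold 0 did. The members' median became 0.26 under spike-in scaling, beside a median of 0.19 over all measured genes. Ccn1 moved to 0.31 with the mean of all probe sets and to 0.06 with multi-transcript probe sets left out, where Wwtr1 became 0.35 and Tead4 0.13, and Tead3 had no probe set left. Yap1, Wwtr1, Tead1, Tead2 and Ccn1 were above 0 in all 10 alternative settings. Raising values to the floor, no floor and a floor of 8 could not change these signs, because the brightest probe sets lay above 8 on both arrays. All settings reuse the same arrays, so a shared sign is no replication, and Yap1's dimmer probe set was lower (-0.05). Ankrd1, Lats2 and Tead3 were above 0 only under spike-in scaling, and Tead4 in 3 of 10.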
